A study of Mus musculus with 12 samples.

Results

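The comparison set the 4 astrocyte libraries of cKO;S/+ mice against the 8 libraries of ctrl-2 and cKO;S/S mice, over all 15089 genes of the count table. All 12 libraries of the series entered it, 4 per genotype and 1 per mouse, and the members are the genes that passed the test: 827 of 15089 higher and 148 of 15089 lower in cKO;S/+. The comparison asks which transcripts depart from control when cortical neurons lack NMNAT2 and 1 functional Sarm1 allele remains, and lie back toward control when neither Sarm1 allele is functional. Astrocytes were sorted from the cortex on postnatal day 16 with beads against the astrocyte antigen ACSA-2, after enzymatic dissociation and removal of debris and dead cells. Ctrl-2 mice were Nmnat2 f/+; NexCre+/-; Sarm1+/-, although the study's methods allow 0 or 1 Sarm1 null allele in this group. The labels call cKO;S/+ mice cKOA, with the genotype Nmnat2 f/f; NexCre+/-; Sarm1+/-. They call cKO;S/S mice cKOB, with the genotype Nmnat2 f/f; NexCre+/-; Sarm1-/-. Every group carried NexCre, which recombines in glutamatergic neurons of the cortex, so the floxed Nmnat2 gene was targeted in neurons and not in the sorted astrocytes, and ctrl-2 neurons kept 1 intact Nmnat2 allele. The Sarm1 null allele was present in all cells. Mice of both sexes were used and the labels do not give the sex of a library.

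NMNAT2 is an enzyme of axons that makes NAD+ from nicotinamide mononucleotide. SARM1 is a NAD+-consuming enzyme that is switched on when this precursor builds up relative to NAD+, and its activity drives axon degeneration. Degenerating axons are taken up by microglia, the macrophages of the brain, which then express a set of genes known as the disease-associated microglia signature. Astrocytes answer to microglial cytokines with inflammatory genes of their own, and supply neurons with cholesterol.

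Promoter sequences show the sequence features of the gene groups described here, in the first listed RefSeq promoter of each gene (GRCm38.p6, the 250 bases before the transcription start, 5′ to 3′). Each is in lower case. Capitals mark, on both strands, matches to the motifs searched for that gene, and matches to the other motifs stay in lower case. The motifs were the sterol regulatory element TCACNCCAC and the CCAAT box for cholesterol synthesis, GGGNNTTTCC for NF-κB, TTTCNNTTTC for the interferon-stimulated response element and TGANTCA for AP-1.
Hmgcs1 (chr13:119690101-119690350, plus strand): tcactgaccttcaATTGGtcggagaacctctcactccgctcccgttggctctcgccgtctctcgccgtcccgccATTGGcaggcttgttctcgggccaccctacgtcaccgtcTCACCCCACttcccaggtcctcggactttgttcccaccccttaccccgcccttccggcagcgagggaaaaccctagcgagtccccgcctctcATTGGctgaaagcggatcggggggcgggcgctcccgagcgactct
Nfkbia (chr12:55492648-55492897, minus strand): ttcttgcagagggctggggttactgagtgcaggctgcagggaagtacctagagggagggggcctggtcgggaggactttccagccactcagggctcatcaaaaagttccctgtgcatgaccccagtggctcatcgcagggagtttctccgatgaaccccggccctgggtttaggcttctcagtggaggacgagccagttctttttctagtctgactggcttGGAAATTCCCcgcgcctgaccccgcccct
Tnfaip3 (chr10:19015411-19015660, minus strand): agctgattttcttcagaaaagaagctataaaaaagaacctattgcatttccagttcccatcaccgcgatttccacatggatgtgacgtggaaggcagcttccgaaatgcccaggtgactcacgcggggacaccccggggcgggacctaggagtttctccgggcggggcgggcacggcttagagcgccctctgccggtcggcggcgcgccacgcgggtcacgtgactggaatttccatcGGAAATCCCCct
Cxcl10 (chr5:92348890-92349139, minus strand): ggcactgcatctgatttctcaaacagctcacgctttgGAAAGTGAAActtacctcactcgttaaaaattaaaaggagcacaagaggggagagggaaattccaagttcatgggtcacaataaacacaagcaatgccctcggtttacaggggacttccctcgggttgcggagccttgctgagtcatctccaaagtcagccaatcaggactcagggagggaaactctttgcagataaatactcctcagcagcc
Bst2 (chr8:71537473-71537722, minus strand): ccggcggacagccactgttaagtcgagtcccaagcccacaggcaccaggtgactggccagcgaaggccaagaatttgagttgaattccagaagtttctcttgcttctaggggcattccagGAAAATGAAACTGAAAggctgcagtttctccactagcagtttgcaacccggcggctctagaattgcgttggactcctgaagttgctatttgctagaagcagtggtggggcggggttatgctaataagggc
The Hmgcs1 promoter held the sterol regulatory element 137 bases before the start and 3 CCAAT boxes at 237, 176 and 45 bases. In the Nfkbia and Tnfaip3 promoters the NF-κB motif began 29 and 12 bases before the start. The interferon motif of Cxcl10 began at 213 bases, and Bst2 held a pair of overlapping matches at 130 and 124 bases. Cxcl10, a chemokine gene outside the interferon-stimulated list, was searched for the NF-κB and the interferon motif, and only the latter was matched. The NF-κB search took GGGNNTTTCC alone. Other forms of the NF-κB site were not searched, so a promoter without a match can still hold such a site. Among all 27025 promoters, the sterol element was found in 1.04%, the CCAAT box in 34.5%, the NF-κB motif in 1.4%, the interferon motif in 3.04% and the AP-1 motif in 6.87%.

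Before the results, 3 features of the libraries bear on every group of genes. Total counts ran from 16506627 to 22159404 per library. Library 14 of cKO;S/+ lay among the reference libraries for most called genes. Its level was inside the range of the 8 reference libraries for 704 of the 827 higher genes and 95 of the 148 lower genes. In contrast, libraries 8, 9 and 10 all lay beyond that range for 737 and 130 of them. Library 14 was also the only cKO;S/+ library that did not express Xist, the X-inactivation RNA of females, at 0.0552 CPM (counts scaled to the library size) against 1031 to 1329 CPM in libraries 8, 9 and 10. Of the reference libraries, 3 expressed Xist and 5 did not. The summed level of 22 general microglia and macrophage markers was 6152, 4762 and 6515 CPM in cKO;S/+ libraries 8, 9 and 10 and 3371 CPM in library 14, against 1831 to 3691 CPM in the ctrl-2 libraries and 2554 to 4016 CPM in those of cKO;S/S. Mature oligodendrocyte markers summed to 3880 to 4682 CPM in libraries 8, 9 and 10 and 7908 CPM in library 14, with 3988 to 12940 CPM in the ctrl-2 libraries and 8044 to 9602 CPM in those of cKO;S/S. The 24 astrocyte markers summed to between 29210 and 49320 CPM in all libraries, and none of the marker lists of other cells was at 0.

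**Figure D1:**
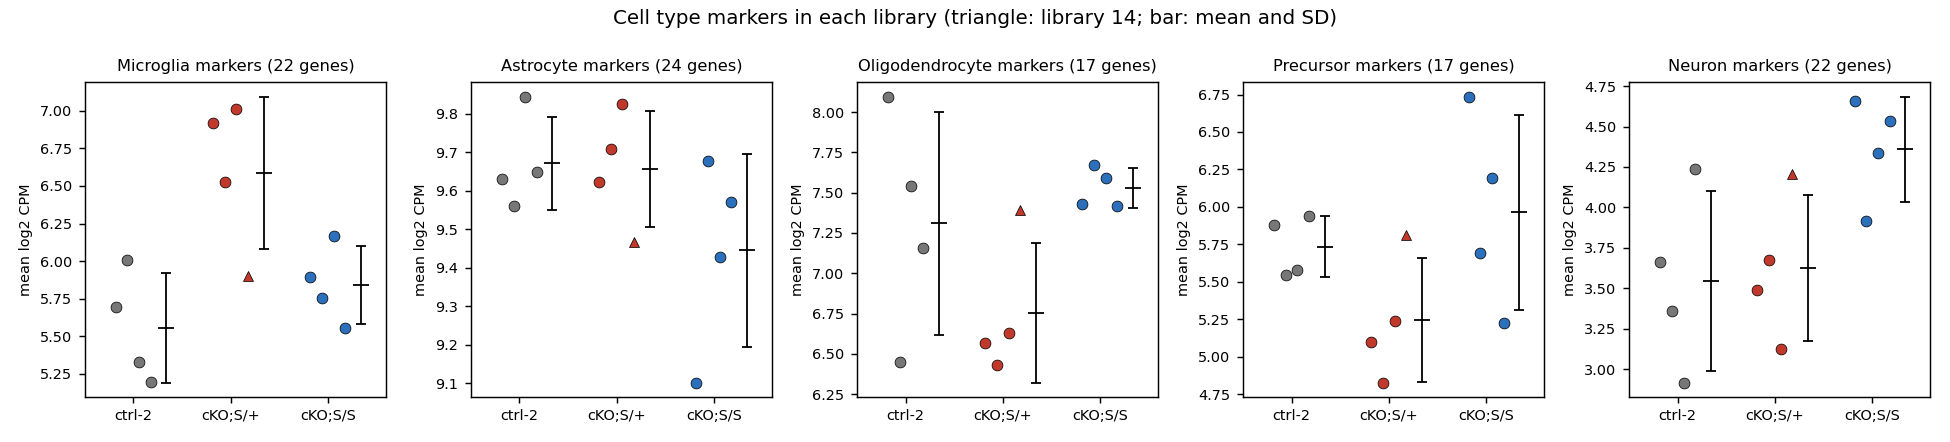
Mean log2 CPM of 5 lists of cell type markers (y axis, 1 panel per list) in the 4 libraries of each genotype (x axis). Points are libraries, the triangle is library 14 of cKO;S/+, and the bar gives mean and SD (n = 4). The microglia markers of libraries 8, 9 and 10 lie above all others, and library 14 lies among the reference libraries. The astrocyte markers overlap between all groups.

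Targeted genes were checked first. Nmnat2 (Entrez 226518, chromosome 1, 152954781 to 153119266) was at 38.7, 35.6, 37.3 and 42.4 CPM in ctrl-2, at 20.9, 20.7, 20.3 and 29.4 CPM in cKO;S/+ libraries 8, 9, 10 and 14, and at 42.6, 19.9, 31.2 and 26.5 CPM in cKO;S/S. The cKO;S/+ libraries lay below all ctrl-2 libraries, and library 15 of cKO;S/S lay above all of these. The difference of cKO;S/+ from the 8 reference libraries was −0.58 on the log2 scale (SE 0.17, adjusted p = 0.0616). Sarm1 (Entrez 237868, chromosome 11, 78470273 to 78497816) was at 12.8, 8.16, 11 and 5.73 CPM in ctrl-2, at 10.1, 9.27, 9.66 and 6.13 CPM in cKO;S/+ and at 7.1, 4.82, 5.22 and 7.22 CPM in cKO;S/S. The cKO;S/S libraries were lower by 0.63 on the log2 scale than ctrl-2 in the same fit, with a 95% interval of −1.16 to −0.1 and overlapping groups. Since the whole gene was counted, a transcript that lacks only the deleted part would still be counted.

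Genes of inflammation and of microglia were among the higher genes, and genes of cholesterol synthesis and of young astrocytes among the lower ones. In all, 827 genes were higher in cKO;S/+ than in the 2 other genotypes averaged (5.48% of the genes tested) and 148 were lower (0.981%), by edgeR's quasi-likelihood test at an adjusted p under 0.05. The smallest adjusted p was 0.0116. Before adjustment, 2006 higher and 1495 lower genes had a p under 0.05. Of the called genes, 201 were higher by at least 1 on the log2 scale and 6 were lower by as much. All 4 cKO;S/+ libraries lay above all 8 others for 130 genes (0.862%), of which 97 were called, and below all 8 for 76 genes (0.504%), of which 45 were called. Calls depended on libraries 8, 9 and 10. Without library 8 or library 10 the same test called 0 genes in either direction (1374 higher and 831 lower at an unadjusted p under 0.05 without library 8, and 1551 and 889 without library 10), and without library 9 it called 19 higher and 0 lower. Without library 14 it called 1525 higher and 1120 lower, without library 5 of ctrl-2 1031 and 279, and without library 17 of cKO;S/S 808 and 88. List counts given below without library 14 stand beside its 1525 and 1120 calls, not beside the 827 and 148 of all libraries. Leaving out libraries 4, 6, 7, 15 or 18 in turn gave 261 to 530 higher and 27 to 60 lower genes, and all 975 called genes kept their sign with each library left out.

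**Figure D2:**
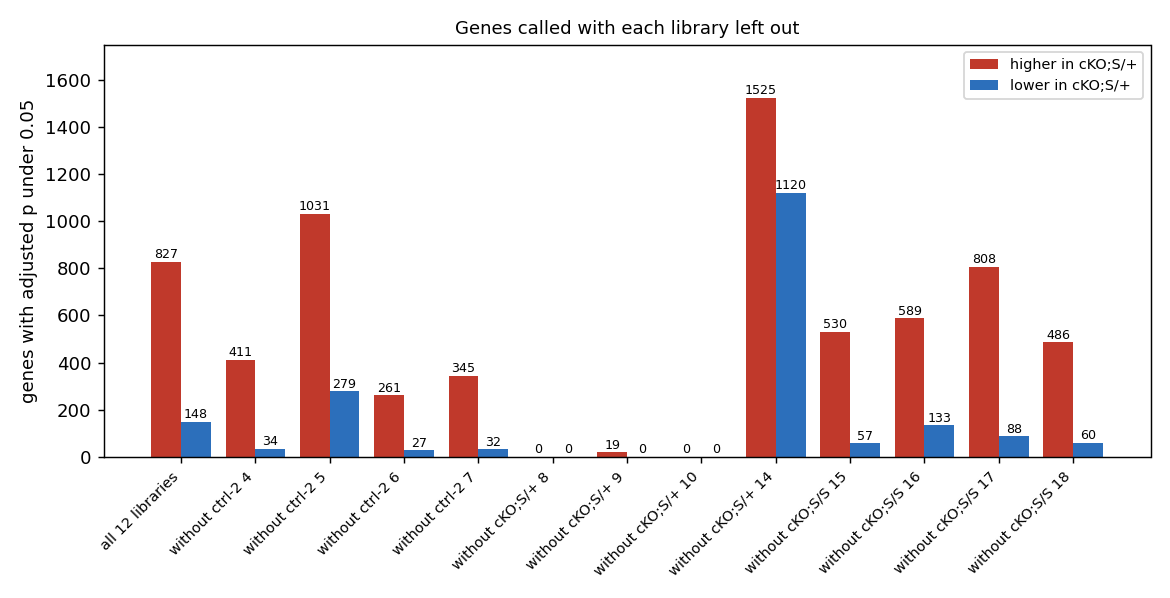
Number of genes with an adjusted p under 0.05 (y axis) with all 12 libraries and with each library left out in turn (x axis), higher in cKO;S/+ in red and lower in blue, with the counts above the bars. The count is 827 and 148 with all libraries, 0 and 0 without library 8 or 10, and 1525 and 1120 without library 14.

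Covariates gave the following values for the same comparison. With the mean microglia marker level as a covariate 0 genes were called (176 higher and 139 lower at an unadjusted p under 0.05), and the signs of 840 of the 975 called genes were kept. With the oligodendrocyte marker level 0 genes were called (975 higher and 485 lower at an unadjusted p under 0.05). With Xist as a covariate the only call was Ddx3y, a Y-linked gene outside the naming rule. With library 14 left out as well as the microglia covariate, the only call was Itgax. Among the 6 libraries that express Xist (3 of cKO;S/+, 1 of ctrl-2 and 2 of cKO;S/S) 1013 genes were higher and 808 lower, and with library 14 left out and Xist as a covariate, an alternative chosen after seeing the data, the counts were 824 and 266. Among the libraries that do not express Xist, library 14 lay above all 5 reference libraries for 244 of the 827 higher genes (29.5%, against 10.3% of all genes) and below all 5 for 78 of the 148 lower genes (52.7%, against 10.5% of all genes). Library 14 itself entered the test that chose these genes. In bulk RNA of a sorted population, more microglia in the sort and more RNA of these genes per cell cannot be told apart.

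Disease-associated microglia genes were mostly higher. Of 24 measured members 20 rose and 0 fell, with a median log2 difference of 1.06 (median of all genes −0.002), and the median difference of cKO;S/S from ctrl-2 was 0.13. Itgax (Entrez 16411, chromosome 7, 128129526 to 128150657), which encodes the integrin CD11c, was at 1.38, 2.29, 1.68 and 1.46 CPM in ctrl-2, at 23.3, 25.2, 30.2 and 2.87 CPM in cKO;S/+ libraries 8, 9, 10 and 14, and at 1.68, 2.12, 2.72 and 2 CPM in cKO;S/S. The 4 cKO;S/+ libraries lay above all others, with library 14 just above the highest reference library. Itgax rose 10.7-fold (log2 difference 3.42, SE 0.41, adjusted p = 0.0117), and cKO;S/S differed from ctrl-2 by 0.32 (95% interval −0.94 to 1.58). Spp1 (Entrez 20750, chromosome 5, 104435111 to 104441053), the gene of the secreted protein osteopontin, was at 5.87, 3.48, 3.58 and 5.63 CPM in ctrl-2, at 23.5, 36.1, 29.2 and 6.4 CPM in cKO;S/+ and at 4.49, 2.53, 4 and 5.46 CPM in cKO;S/S. It rose 5.43-fold (log2 difference 2.44, SE 0.34, adjusted p = 0.0117), with cKO;S/S within the range of ctrl-2 except library 16. Lpl (Entrez 16956, chromosome 8, 68880555 to 68906932), the lipoprotein lipase gene, was at 11.4, 13.2, 8.96 and 8.79 CPM in ctrl-2, at 47.6, 46.9, 64.2 and 15.4 CPM in cKO;S/+ and at 13.4, 13.9, 12.1 and 10.9 CPM in cKO;S/S. Lpl rose 3.77-fold (log2 difference 1.92, SE 0.26, adjusted p = 0.0117) without overlap of the groups. Cst7 (cystatin F, an inhibitor of lysosomal proteases) rose 8.44-fold, to 9.38, 13.7, 11.5 and 1.77 CPM against at most 1.6 CPM in the 8 others (adjusted p = 0.0117). Ctsd, the cathepsin D gene, rose 1.98-fold, from 662 to 1102 CPM in the reference libraries to 2044, 1770, 2158 and 1013 CPM (log2 difference 0.98, SE 0.18, adjusted p = 0.0178). Apoe, which astrocytes express too, did not pass (log2 difference 0.29, adjusted p = 0.25). Without library 14, 22 of the 24 were called higher, and 20 were apart from each of the 2 other genotypes.

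Markers of microglia and macrophages in general rose too, with 20 of 22 called higher and a median log2 difference of 0.92. Homeostatic microglia markers, which fall in disease-associated microglia in published mouse models, were higher in 11 of 17 and lower in 0 (median log2 difference 0.62). Lyz2 (Entrez 17105, chromosome 10, 117277541 to 117282272), the lysozyme gene, was at 30.8, 20, 18.5 and 18.7 CPM in ctrl-2, at 78.8, 67.5, 84.8 and 20 CPM in cKO;S/+ and at 20.7, 21.1, 21 and 18.1 CPM in cKO;S/S. Libraries 8, 9 and 10 exceeded all others by more than 30 CPM and library 14 lay inside the reference range (log2 difference 1.57, SE 0.27, adjusted p = 0.0178). Csf1r, the receptor for CSF1 that microglia need to survive, was at 1788, 1326, 1888 and 1132 CPM in cKO;S/+ against 574 to 1250 CPM in the reference libraries (log2 difference 0.71, SE 0.18, adjusted p = 0.0381). Border-associated macrophage and blood cell markers had a median log2 difference of −0.86, with 2 of 11 above 0. Of the 11, 0 were called higher, 2 lower (18.2%, against 0.981% of all genes) and 9 not called. The lower ones were Cbr2 (log2 difference −1.10) and Cd163, a haemoglobin scavenger receptor (−1.31, SE 0.36, adjusted p = 0.0482). Cd163 overlapped, at 6.94, 2.86, 4.19 and 7.73 CPM in cKO;S/+ against 5.11 to 24.4 CPM in the reference libraries. Without library 14, 1 was called higher and 3 lower.

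Cytokine genes and their receptors rose in 18 of 28 measured members and fell in 1 (median log2 difference 0.67, median of cKO;S/S minus ctrl-2 0.27). Il12b (Entrez 16160, chromosome 11, 44400063 to 44414677), which encodes the shared subunit of interleukins 12 and 23, was at 0.286, 0.191, 0.336 and 0.146 CPM in ctrl-2, at 10.7, 8.18, 5.81 and 1.32 CPM in cKO;S/+ and at 0.701, 0.287, 1.44 and 0.117 CPM in cKO;S/S. Library 17 of cKO;S/S exceeded library 14 of cKO;S/+. Il12b rose 16.4-fold (log2 difference 4.03, SE 0.52, adjusted p = 0.0117). Csf1 (Entrez 12977, chromosome 3, 107741048 to 107760469), the growth factor of microglia, which astrocytes can make, was at 85.7, 106, 92.1 and 82.7 CPM in ctrl-2, at 301, 319, 296 and 145 CPM in cKO;S/+ and at 123, 92.4, 151 and 101 CPM in cKO;S/S. Libraries 8, 9 and 10 lay far above all others and library 14 within the reference range (log2 difference 1.36, SE 0.18, adjusted p = 0.0117).

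Chemokine genes were higher in 10 of 23 and lower in 0 (median log2 difference 0.47). Ccl3, a chemokine gene of microglia, was at 29.3, 67.3, 36.1 and 40.3 CPM in ctrl-2, at 204, 207, 282 and 87.5 CPM in cKO;S/+ and at 76.9, 51.6, 98.9 and 55.9 CPM in cKO;S/S. Its cKO;S/+ libraries exceeded all ctrl-2 libraries, and library 14 lay below library 17 of cKO;S/S (log2 difference 1.82, SE 0.28, adjusted p = 0.0141). Receptors of bacterial products and inflammasome genes were higher in 17 of 29 and lower in 0 (median 0.73). Tlr2, which senses bacterial lipoproteins, was at 12.9, 17.4, 10.9 and 10.3 CPM in ctrl-2, at 69.9, 58.5, 64.4 and 20.4 CPM in cKO;S/+ and at 21.4, 20.2, 24.5 and 14.4 CPM in cKO;S/S (log2 difference 1.73, SE 0.26, adjusted p = 0.0135). Ticam2, an adaptor of toll-like receptor 4, rose without overlap, with 12.7, 9.44, 12.6 and 8.11 CPM against 4.51 to 6.87 CPM (log2 difference 0.92, SE 0.14, adjusted p = 0.0141). Complement genes were higher in 9 of 23 and lower in 0 (median 0.55). C1qa, a chain of the C1q protein, was at 557, 410, 526 and 252 CPM in cKO;S/+ against 129 to 295 CPM (log2 difference 1.05, SE 0.21, adjusted p = 0.021). C3ar1, a receptor of the C3 fragment C3a, was at 91.9, 76.2, 98.4 and 35.4 CPM against 21.9 to 48.3 CPM (log2 difference 1.33, SE 0.25, adjusted p = 0.0191). These groups moved in the same 3 libraries in which the microglia markers were high, and the part of the microglia in each was not tested beyond the covariate values above.

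Interferon-stimulated genes had the highest median of the 32 lists, at 1.12, with 24 of 34 measured members called higher and 0 lower, and the median difference of cKO;S/S from ctrl-2 was 0.22. Bst2 (Entrez 69550, chromosome 8, 71534255 to 71537472), which encodes the antiviral protein tetherin, was at 3.44, 3.96, 1.9 and 4.42 CPM in ctrl-2, at 9.38, 9.44, 13.5 and 4.25 CPM in cKO;S/+ and at 4.11, 3.22, 3.89 and 2.76 CPM in cKO;S/S. Libraries 8, 9 and 10 were higher than all others, and library 14 and the cKO;S/S libraries lay within the ctrl-2 range. The log2 difference was 1.40 (SE 0.26, adjusted p = 0.0185), and that of cKO;S/S from ctrl-2 was 0.03 (95% interval −0.68 to 0.73). Oasl1 (Entrez 231655), a member of the oligoadenylate synthetase family, was at 4.79, 3.09, 4.81 and 0.607 CPM in cKO;S/+ and at 0.191 to 1.12 CPM in the 8 others (log2 difference 2.36, SE 0.44, adjusted p = 0.0185). Of the interferon-stimulated genes with a promoter in the table, the interferon motif was found in 11 of 25 (44%), among them Ifit1, Ifit3, Isg15, Rsad2 and Bst2, and in 10 of the 19 called ones. Limma-voom called 10 of the 34, and without library 9 the test called 0. Antigen presentation genes rose in 16 of 22 and fell in 0 (median 0.95). H2-D1, a class I histocompatibility gene, was at 11.5, 12.5, 7.84 and 9.51 CPM in ctrl-2, at 36.5, 25.6, 35.2 and 15 CPM in cKO;S/+ and at 15.8, 14.5, 18.2 and 9.51 CPM in cKO;S/S (log2 difference 1.20, SE 0.22, adjusted p = 0.0178). Class I genes are near-identical copies, and reads of H2-D1 may be shared with its relatives.

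**Figure D3:**
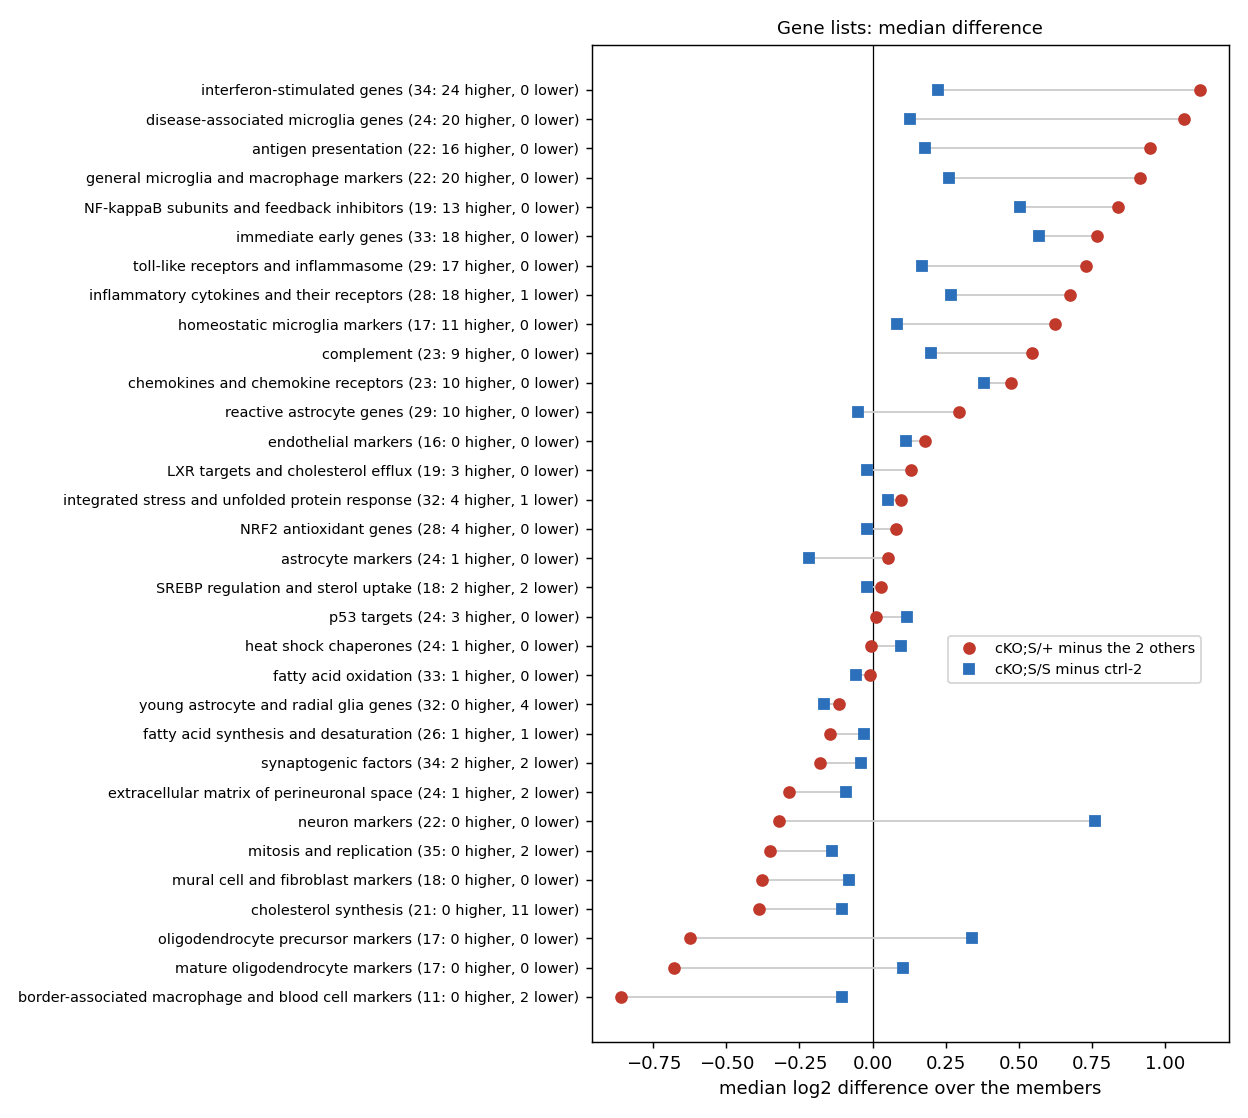
Median log2 difference over the measured members of each of 32 gene lists (x axis). Red points give cKO;S/+ minus the mean of ctrl-2 and cKO;S/S, and blue squares give cKO;S/S minus ctrl-2. The y axis names each list with its members measured and called. Interferon-stimulated and disease-associated microglia genes lie at 1.12 and 1.06 in red with squares at 0.22 and 0.13, whereas immediate early genes lie at 0.77 with a square at 0.57.

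Astrocyte markers were called at about the share of all genes. Of 24 astrocyte markers 1 rose, Gfap (4.17%, against 5.48% of all genes), and 0 fell, against 0.981% (median log2 difference 0.05). Gfap (Entrez 14580, chromosome 11, 102887336 to 102897200), the intermediate filament gene that marks reactive astrocytes, was at 158, 196, 260 and 201 CPM in ctrl-2, at 420, 465, 433 and 175 CPM in cKO;S/+ and at 121, 130, 141 and 245 CPM in cKO;S/S. Libraries 8, 9 and 10 exceeded every other library, library 14 lay within the ctrl-2 range, and 3 of the 4 cKO;S/S libraries lay below it. The log2 difference was 1.05 (SE 0.24, adjusted p = 0.0279), and that of cKO;S/S from ctrl-2 was −0.35 (95% interval −0.98 to 0.28). Slc1a2, a glutamate transporter gene of astrocytes, differed by −0.10 on the log2 scale and did not pass. Reactive astrocyte genes rose in 10 of 29 members and fell in 0 (median 0.30), and several of them are also made by microglia. Ptgs2, which encodes cyclooxygenase-2, was at 5.68, 6.49, 6.83 and 8.25 CPM in ctrl-2, at 13.3, 17.5, 17 and 7.62 CPM in cKO;S/+ and at 5.89, 3.62, 5.54 and 5.16 CPM in cKO;S/S (log2 difference 1.24, SE 0.20, adjusted p = 0.0153). Cxcl10 (Entrez 15945, chromosome 5, 92346638 to 92348889), whose product attracts T cells and which interferon induces, was at 1.48, 3.15, 1.74 and 1.26 CPM in ctrl-2, at 32.9, 29.7, 30.6 and 2.37 CPM in cKO;S/+ and at 6.36, 4.94, 10.5 and 2.41 CPM in cKO;S/S. Libraries 15, 16 and 17 of cKO;S/S thus lay above ctrl-2 and below libraries 8, 9 and 10 (log2 difference 2.81, SE 0.50, adjusted p = 0.0178; cKO;S/S minus ctrl-2 1.67, 95% interval 0.18 to 3.15).

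NF-κB genes and immediate early genes lay between the other genotypes in cKO;S/S. NF-κB subunits and their feedback inhibitors rose in 13 of 19 and fell in 0 (median 0.84). Their median difference of cKO;S/S from ctrl-2 was 0.50, and 10 of the 19 were above ctrl-2 there at an unadjusted p under 0.05 (1025 of 15089 genes overall). Nfkbia (Entrez 18035, chromosome 12, 55489409 to 55492647), which encodes the inhibitor IκBα, was at 128, 185, 133 and 101 CPM in ctrl-2, at 636, 472, 564 and 231 CPM in cKO;S/+ and at 249, 225, 345 and 161 CPM in cKO;S/S. Tnfaip3 (Entrez 21929, chromosome 10, 19000910 to 19015410), which encodes the inhibitor A20, was at 90.5, 191, 113 and 89.1 CPM in ctrl-2, at 886, 630, 737 and 244 CPM in cKO;S/+ and at 306, 227, 432 and 148 CPM in cKO;S/S. In both genes libraries 8, 9 and 10 were the highest and 3 of 4 cKO;S/S libraries exceeded all ctrl-2 libraries. The log2 differences were 1.38 (SE 0.25) and 1.77 (SE 0.32), each with an adjusted p of 0.0178, and cKO;S/S lay above ctrl-2 by 0.84 (95% interval 0.2 to 1.48) and 1.20 (0.35 to 2.06). Both promoters hold the NF-κB motif shown above, which was found in 4 of the 15 promoters of this list that could be read (26.7%).

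Immediate early genes, which encode transcription factors and feedback proteins induced within minutes of a stimulus, rose in 18 of 33 and fell in 0 (median 0.77). Their median difference of cKO;S/S from ctrl-2 was 0.57, and 17 of the 33 were above ctrl-2 at an unadjusted p under 0.05. Klf2 (Entrez 16598), a transcription factor gene, was at 63.7, 63, 55 and 53.2 CPM in ctrl-2, at 187, 128, 135 and 110 CPM in cKO;S/+ and at 121, 78.7, 120 and 86.9 CPM in cKO;S/S. All mutant libraries exceeded all ctrl-2 libraries, library 14 included (log2 difference 0.86, SE 0.14, adjusted p = 0.0157; cKO;S/S minus ctrl-2 0.79, 95% interval 0.42 to 1.16). Atf3, a stress-induced transcription factor gene, was at 119, 247, 151 and 133 CPM in ctrl-2, at 762, 492, 708 and 330 CPM in cKO;S/+ and at 324, 286, 505 and 196 CPM in cKO;S/S (log2 difference 1.31, SE 0.27, adjusted p = 0.0213). The AP-1 motif was found in 0 of the 28 immediate early promoters read.

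Stress programmes other than the immediate early genes were called higher in 4.17% to 14.3% of a list, against 5.48% of all genes. Only the heat shock chaperones lay below that share. Of the p53 targets 3 of 24 rose and 0 fell (median 0.01, and 5 higher without library 14): Pmaip1, Cdkn1a and Gdf15. Cdkn1a, which encodes the cell cycle inhibitor p21, was at 24.1, 24.1, 26 and 23.1 CPM in ctrl-2, at 56.6, 49.7, 47.8 and 33.1 CPM in cKO;S/+ and at 33.1, 27.8, 33.2 and 27.9 CPM in cKO;S/S, so that cKO;S/S lay above all ctrl-2 libraries (log2 difference 0.78, SE 0.11, adjusted p = 0.0125). Integrated stress and unfolded protein response genes were higher in 4 of 32 and lower in 1 (median 0.10), heat shock chaperones in 1 and 0 of 24 (median −0.004) and NRF2 antioxidant genes in 4 and 0 of 28 (median 0.08, and 7 higher without library 14). Nfe2l2 itself, the gene of the transcription factor NRF2, was at 102, 107, 113 and 80.5 CPM in cKO;S/+ and at 59.8 to 83.7 CPM in the 8 others (log2 difference 0.43, SE 0.10, adjusted p = 0.0242).

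Cholesterol synthesis was the list with the most lower genes: 0 of 21 enzymes rose and 11 fell, from Hmgcs1 at the start of the pathway to Dhcr7 near its end, with a median log2 difference of −0.39 and a median of cKO;S/S minus ctrl-2 of −0.11. Acat2 (Entrez 110460, chromosome 17, 12943042 to 12960725), the cytosolic acetyl-CoA acetyltransferase gene, was at 26.2, 19.7, 22.9 and 20.4 CPM in ctrl-2, at 16, 14.2, 18.6 and 17.4 CPM in cKO;S/+ and at 21.7, 21.1, 23.5 and 23.8 CPM in cKO;S/S. The 4 cKO;S/+ libraries lay below all others (log2 difference −0.44, SE 0.09, adjusted p = 0.0236). Sqle (Entrez 20775), the squalene epoxidase gene, was at 168, 166, 173 and 160 CPM in ctrl-2, at 104, 99.1, 126 and 133 CPM in cKO;S/+ and at 129, 143, 138 and 160 CPM in cKO;S/S, with cKO;S/S at or below the lowest ctrl-2 library (log2 difference −0.41, SE 0.08, adjusted p = 0.0213). Lss (Entrez 16987), the lanosterol synthase gene, was at 94.8, 66, 77.7 and 72.9 CPM in ctrl-2, at 51.3, 48, 60.6 and 67.1 CPM in cKO;S/+ and at 75.6, 77.2, 81.1 and 78.8 CPM in cKO;S/S, and library 14 lay just above the lowest ctrl-2 library (log2 difference −0.46, SE 0.10, adjusted p = 0.0254). Hmgcs1, the HMG-CoA synthase gene whose promoter is shown above and which falls outside the naming rule, was at 692, 493, 604 and 555 CPM in ctrl-2, at 292, 296, 355 and 514 CPM in cKO;S/+ and at 437, 497, 495 and 571 CPM in cKO;S/S (log2 difference −0.57, SE 0.15, adjusted p = 0.0427). Of the 16 cholesterol promoters read, 14 held a CCAAT box (87.5%) and 1, that of Hmgcs1, the sterol element (6.25%). Oligodendrocytes also make cholesterol, and their 17 mature markers had a median log2 difference of −0.68 with 0 called, and 11 lower without library 14. Their part in the fall of cholesterol genes was not tested beyond the covariate above.

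Related lipid genes gave single calls in either direction. Elovl6, an elongase of long-chain fatty acids, was at 144, 83.5, 112 and 103 CPM in ctrl-2, at 52.6, 57.9, 65.2 and 98.7 CPM in cKO;S/+ and at 104, 116, 108 and 102 CPM in cKO;S/S (log2 difference −0.67, SE 0.17, adjusted p = 0.0347). Stard4 and Vldlr, a sterol transporter and a lipoprotein receptor, fell by 0.42 and 0.43 on the log2 scale (adjusted p = 0.0476 and 0.0292), and Mylip, whose product degrades lipoprotein receptors, was higher by 0.88 (adjusted p = 0.0213). Abcg1, a cholesterol efflux transporter gene and target of the sterol receptor LXR, was at 52.1, 58.3, 51.9 and 48.6 CPM in ctrl-2, at 102, 95.7, 120 and 67 CPM in cKO;S/+ and at 63.7, 48.3, 63.5 and 65.7 CPM in cKO;S/S, without overlap (log2 difference 0.77, SE 0.13, adjusted p = 0.0157). The list of sterol uptake and its regulators rose in 2 of 18 members and fell in 2 (11.1% each). The LXR list rose in 3 of 19 (15.8%), and in 7 without library 14, where 1525 of all genes rose. Fatty acid synthesis rose in 1 of 26 with 1 lower (3.85% each), and fatty acid oxidation in 1 of 33 (3.03%). Of all genes, 5.48% were higher and 0.981% lower.

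Lower genes outside lipid metabolism named by the rule came from several families. Bmp2 (Entrez 12156, chromosome 2, 133552159 to 133562896), a secreted morphogen gene, was at 7.73, 7.68, 7.11 and 9.76 CPM in ctrl-2, at 4.59, 3.26, 2.67 and 5.74 CPM in cKO;S/+ and at 8.27, 6.03, 7.56 and 7.16 CPM in cKO;S/S. All cKO;S/+ libraries lay below all others (log2 difference −0.92, SE 0.19, adjusted p = 0.0213). Epha5, an ephrin receptor gene, was at 16.2, 18.9, 16.5 and 23.5 CPM in cKO;S/+ and at 23.5 to 31.5 CPM in the 8 others (log2 difference −0.52, SE 0.10, adjusted p = 0.0191). Rlbp1, which encodes a retinaldehyde-binding protein, was at 24.1, 23.8, 26.3 and 25.5 CPM against 28.4 to 34.6 CPM (log2 difference −0.36, SE 0.07, adjusted p = 0.0191), and library 14 lay with the other cKO;S/+ libraries in this gene. Kcnmb2, a subunit gene of a calcium-activated potassium channel, was at 0.586, 0.63, 0.571 and 0.662 CPM in cKO;S/+ against 0.861 to 2.01 CPM (log2 difference −1.30, SE 0.24, adjusted p = 0.0185), again with library 14 among its group. Nlgn3, a synaptic adhesion gene of the neuroligin family, was at 104, 107, 121 and 122 CPM against 124 to 141 CPM (log2 difference −0.26, SE 0.06, adjusted p = 0.0274).

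Matrix genes of the space around neurons fell in 2 of 24 members (8.33%) and rose in 1 (4.17%), with a median of −0.29. Factors with which astrocytes promote synapses fell in 2 of 34 and rose in 2 (5.88% each, median −0.18). The shares over all genes were 0.981% lower and 5.48% higher, so the higher calls of both lists were near that share. The 2 lower matrix genes, Tnc and Ptprz1, are also counted among the young astrocyte genes below. Without library 14 the lower members were 9 of 24 matrix genes and 7 of 34 synapse-promoting factors, in a fit that called 1120 of all genes lower.

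Young astrocyte and radial glia genes fell in 4 of 32 members (12.5%, against 0.981% of all genes) and rose in 0 (against 5.48%). The other 28 were not called, and the median was −0.11. Here the cKO;S/S libraries moved with cKO;S/+: their median difference from ctrl-2 was −0.17, with 11 of the 32 below ctrl-2 at an unadjusted p under 0.05 (735 of 15089 genes overall). Without library 14, 9 of the 32 fell. The 24 astrocyte markers were also lower in cKO;S/S than in ctrl-2, with a median difference of −0.22, 23 of 24 below 0 and 5 at an unadjusted p under 0.05. Tnc (Entrez 21923, chromosome 4, 63959785 to 64047015), which encodes the matrix protein tenascin-C, was at 87.2, 102, 114 and 91.7 CPM in ctrl-2, at 43.5, 40.2, 38.7 and 58.7 CPM in cKO;S/+ and at 65.7, 57.9, 59.7 and 89.3 CPM in cKO;S/S. Libraries 8, 9 and 10 were the lowest and 3 of the 4 cKO;S/S libraries lay below all ctrl-2 libraries (log2 difference −0.86, SE 0.14, adjusted p = 0.0157; cKO;S/S minus ctrl-2 −0.54, 95% interval −0.87 to −0.2). Ptprz1 (Entrez 19283), a receptor phosphatase gene, was at 2399, 2665, 2849 and 2482 CPM in ctrl-2, at 1397, 1598, 1688 and 1910 CPM in cKO;S/+ and at 1698, 1768, 1721 and 2246 CPM in cKO;S/S. All 8 mutant libraries lay below all ctrl-2 libraries (log2 difference −0.41, SE 0.11, adjusted p = 0.0399; cKO;S/S minus ctrl-2 −0.48, 95% interval −0.75 to −0.22). Ptn, which encodes pleiotrophin, a ligand of that receptor, was at 1196, 1222, 1330 and 1215 CPM in ctrl-2, at 749, 789, 852 and 928 CPM in cKO;S/+ and at 849, 951, 926 and 1132 CPM in cKO;S/S, and its mutant libraries likewise lay below ctrl-2 (log2 difference −0.40, SE 0.09, adjusted p = 0.0253). Fabp7, a fatty acid binding protein gene of radial glia, fell by 0.58 on the log2 scale (SE 0.12, adjusted p = 0.0233). Mitosis and replication genes fell in 2 of 35 (5.71%, against 0.981% of all genes), with a median of −0.35. Without library 14 they fell in 23 of 35, where 1120 of all genes fell.

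Markers of further cell types gave 0 calls: oligodendrocyte precursors (17 measured, median −0.63), neurons (22, median −0.32), endothelium (16, median 0.18) and mural cells with fibroblasts (18, median −0.38). Without library 14, 9 of the 17 precursor, 7 of the 22 neuron and 9 of the 18 mural cell and fibroblast markers were called lower, and 0 of the 16 endothelial ones. Of all genes, 1120 were called lower in that fit. The neuron markers differed between the 2 groups pooled as reference, with a median difference of cKO;S/S from ctrl-2 of 0.76. Of the 22, 11 were above ctrl-2 at an unadjusted p under 0.05 (1025 of 15089 genes overall). The libraries of the 2 groups overlapped, with summed levels of 634 to 1135 CPM in ctrl-2 and 869 to 1367 CPM in cKO;S/S.

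**Figure D4:**
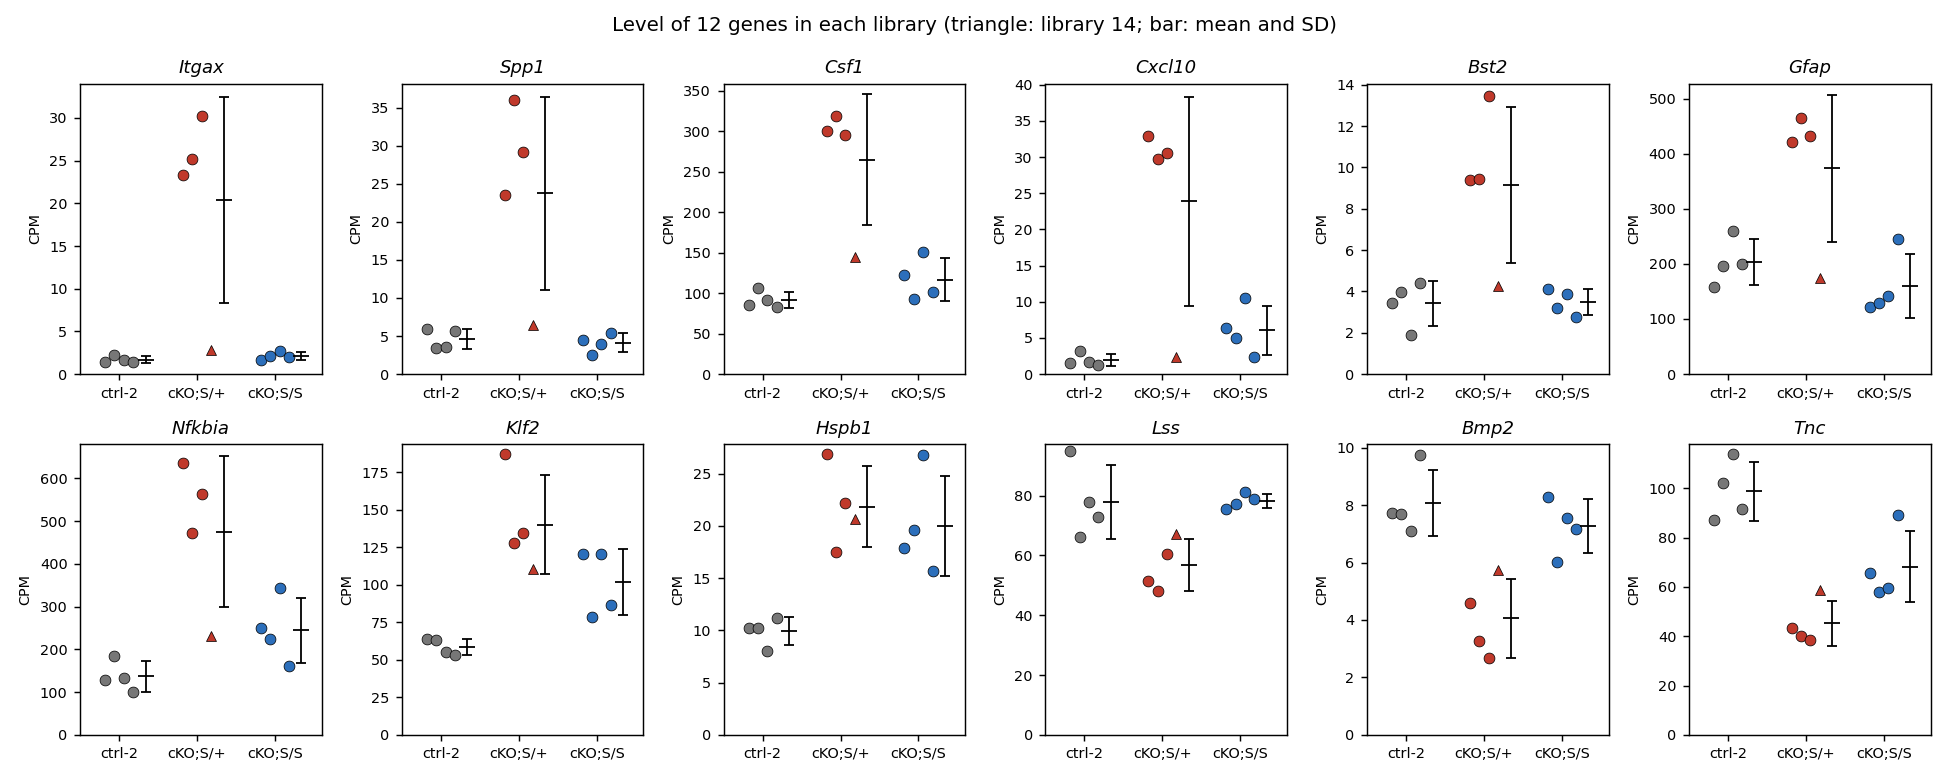
CPM (y axis, from 0) of 12 genes in the 4 libraries of each genotype (x axis). Points are libraries, the triangle is library 14 and the bar gives mean and SD (n = 4). Itgax, Spp1, Bst2 and Gfap stand high in 3 cKO;S/+ libraries, with 3 of the 4 cKO;S/S libraries below ctrl-2 in Gfap, Nfkbia, Klf2 and Hspb1 are raised in both mutant genotypes, and Lss, Bmp2 and Tnc are lower in cKO;S/+.

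Whether the called genes were back at the control level in cKO;S/S was asked of a separate difference, cKO;S/S minus ctrl-2. Its size does not use the levels in cKO;S/+, but its p-values and intervals share the estimate of spread from all 12 libraries. By edgeR's quasi-likelihood test 0 genes were called there (0% of genes, smallest adjusted p 0.182), with 1025 higher and 735 lower at an unadjusted p under 0.05. With DESeq2 31 genes were higher and 27 lower, with edgeR's likelihood ratio test 33 and 15, and limma-voom gave 0 in both directions. Without library 18 of cKO;S/S, 1 gene was higher and 4 were lower by the quasi-likelihood test. The absence of calls does not show a return. Of the 827 higher genes, 738 (89.2%) were above ctrl-2 in cKO;S/S, against 53.3% of all genes, with a median log2 difference of 0.23 beside 0.69 for the main difference. Of the 148 lower genes, 97 (65.5%) were below ctrl-2 in cKO;S/S, with a median of −0.06 beside −0.45. Among all 15089 genes, 8039 (53.3%) were above ctrl-2 there and the others were not. At an unadjusted p under 0.05, cKO;S/S was above ctrl-2 in 147 and below in 2 of the higher genes, and below in 19 and above in 4 of the lower genes.

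The 95% interval of this difference covered 0 in 803 of the 975 called genes. In 839 of the 975 it extended from its own estimate by at least 50% of the main difference to each side. Where an interval this wide covered 0, a full return and a return of part of the way were not distinguished at 4 libraries per group. Some intervals this wide left out 0, as in Hspb1 (0.63 to 1.38). For 10 genes the interval lay within 50% of the main difference in either direction: Itgax, Lpl, Spp1, Clec7a, Arid5b, Ticam2, Plaur and Anxa3 among the higher genes, and Kcnmb2 and Fhl5 among the lower ones. Clec7a, Plaur, Anxa3 and Fhl5 fall outside the naming rule and were named because the count is small. Clec7a, which encodes the β-glucan receptor dectin-1, was at 3.53, 4.73, 3.42 and 3.06 CPM in ctrl-2, at 45.2, 28, 33.3 and 4.14 CPM in cKO;S/+ and at 1.92, 3.16, 5.91 and 2.76 CPM in cKO;S/S (log2 difference 2.96, SE 0.43, adjusted p = 0.0125). Arid5b, a chromatin regulator gene, had a small difference and little spread: 34.9, 37, 34.4 and 37.5 CPM in ctrl-2, against 46.5, 45.8, 46.2 and 43.8 CPM in cKO;S/+ and 35.2, 36.2, 39.6 and 36.1 CPM in cKO;S/S. Its groups did not overlap, library 14 included (log2 difference 0.33, SE 0.05, adjusted p = 0.0141; cKO;S/S minus ctrl-2 0.03, 95% interval −0.1 to 0.16). Without library 14, 125 higher and 69 lower genes met this criterion, and with any other library left out 0 to 5 higher and 0 to 3 lower genes did.

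At the other end, 5 higher and 5 lower genes were taken for the largest share of the difference still present in cKO;S/S. This choice used the cKO;S/S values, so they are described and not tested. The higher ones were Hspb1, Per1, Trpm2, Whrn and Cebpb and the lower ones Ptprz1, Tfap2b, Tbx18, Ptn and Lgr6. Hspb1 (Entrez 15507), a small heat shock protein gene, was at 10.3, 10.3, 8.01 and 11.2 CPM in ctrl-2, at 26.9, 17.5, 22.2 and 20.7 CPM in cKO;S/+ and at 17.9, 19.6, 26.7 and 15.7 CPM in cKO;S/S. Trpm2, a cation channel gene opened by ADP-ribose, was at 8.92, 10.9, 8.96 and 10.5 CPM in ctrl-2, at 17.2, 17.9, 16 and 14 CPM in cKO;S/+ and at 13.6, 15.4, 15.3 and 13.9 CPM in cKO;S/S. Per1, a clock gene, ran from 188 to 244 CPM among the ctrl-2 libraries, from 298 to 381 CPM in cKO;S/+ and from 251 to 337 CPM in cKO;S/S. In these 3 genes all 8 mutant libraries lay above all ctrl-2 libraries, and the cKO;S/+ and cKO;S/S libraries overlapped. In Pld5, which was named by the rule for lower genes, the groups pooled as reference stood apart from each other: cKO;S/S was at 2.9, 3.16, 3.52 and 2.76 CPM and ctrl-2 at 1.81, 2.05, 1.9 and 2.04 CPM, beside 1.71, 1.26, 1.14 and 1.66 CPM in cKO;S/+.

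A stricter reading asks that a gene differ from ctrl-2 and from cKO;S/S separately, by the larger of the 2 p-values. By this measure 0 genes were called with all 12 libraries (0% of genes, smallest adjusted p 0.253), although 1078 genes were higher and 453 lower at an unadjusted p under 0.05, among them 778 of the 827 higher and 140 of the 148 lower genes. DESeq2 gave 158 higher and 16 lower genes here, the likelihood ratio test 128 and 10, and limma-voom 0 in both directions. Without library 14, 611 genes were higher and 247 lower by the quasi-likelihood test. In that fit 26 of the 34 interferon-stimulated genes, 20 of the 24 disease-associated microglia genes, 18 of the 22 general microglia markers and 17 of the 22 antigen presentation genes differed from each genotype, as did 10 of the 19 NF-κB genes, 6 of the 33 immediate early genes and 9 of the 21 cholesterol enzymes. The 2 pairwise differences share the cKO;S/+ libraries.

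**Figure D5:**
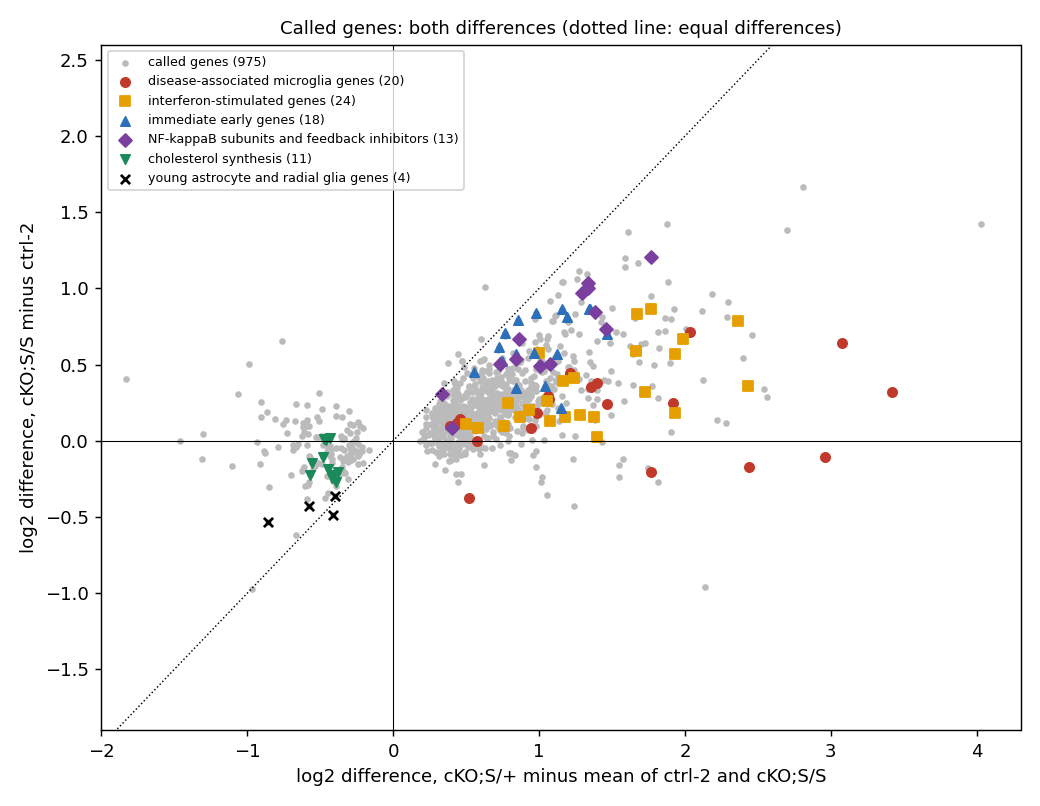
Log2 difference of cKO;S/S from ctrl-2 (y axis) against that of cKO;S/+ from the mean of both (x axis) for the 975 called genes, with the called members of 6 lists in colour. The dotted line marks equal differences. Disease-associated microglia genes reach 3.42 on the x axis and lie between −0.377 and 0.711 on the y axis, while NF-κB and immediate early genes lie closer to the line and the 4 young astrocyte and radial glia genes lie near it on the lower side.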

How the data were processed

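RNA was sequenced from cortical astrocytes sorted at postnatal day 16, 1 library per mouse and 4 mice per genotype. Per the submitters' processing notes, the authors used STAR 2.7.10a with the mouse build mm10, featureCounts (Subread 2.0.3), edgeR 4.2.1 and FastQC 0.11.5. The sources used here do not state the gene annotation, the strand setting or the options of the aligner. The deposited raw counts are reads per gene that the authors obtained with featureCounts and did not normalize, and the counts of all 15089 genes were used. The deposited log2 CPM values, which the authors computed with edgeR, served only to check that each of the 12 matched its own count column best. Columns of the authors' own comparisons hold fold changes and p-values and were not used. Total counts ran from 16506627 to 22159404 per library, of which Rn45s took 7.03 to 8.41%. No 2 libraries of a genotype agreed within sampling noise.

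Counts were fitted with edgeR 4.0.16 (R 4.3.3) as 3 groups in 1 model of 12 libraries (TMM scaling, 9 residual degrees of freedom, prior degrees of freedom 3.78). The filter on low counts (at least 10 counts, 15 in total) removed 0 genes. The contrast was cKO;S/+ minus the mean of ctrl-2 and cKO;S/S, by the two-sided quasi-likelihood test with Benjamini-Hochberg adjustment over all genes and a threshold of 0.05, and every adjusted p in the text is from it unless another test is named. Log2 differences are those of the fit, levels are CPM, and a fold is the log2 difference raised from the log2 scale. For return toward control, cKO;S/S minus ctrl-2 was taken from the same fit. The p-values measure the spread between mice of these groups. The procedure was tested on simulated counts.

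Genes were named by a rule: the 12 higher and 12 lower called genes with the smallest adjusted p whose groups did not overlap and whose mean log2 CPM was at least 0, up to 4 called members per list (or the most abundant member), in lists of cell type markers the 2 members with the highest level, Nmnat2 and Sarm1, genes called between cKO;S/S and ctrl-2, and 5 genes per direction with the largest share of the difference left in cKO;S/S. Predicted genes were left out of the first and last of these. The comparison, the 32 lists and the rule were chosen with earlier results of these data known. The lists share members, so that a called gene can be counted in several of them. Entrez identifiers were found for 14107 genes, and the RefSeq position on GRCm38 overlapped the deposited one for 14098. Promoters are from RefSeq (GRCm38.p6). Alternatives were other scalings and filters, the likelihood ratio test, limma-voom (limma 3.58.1), DESeq2 1.42.0, the level of Xist, of microglia markers or of oligodendrocyte markers as a covariate, and leaving out each library. Some genes are not reported here.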

Additional observations from a re-analysis of the deposited data

Results flagged for a closer look

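For 57 genes printed in the text and the mean log2 CPM of the 32 lists, the library farthest from the rest of its genotype was sought by Dixon's ratio, the gap to the nearest library divided by the range of the 4. Of 267 groups, 14 exceeded the 95% critical ratio for 4 samples, and chance sets apart about 1 in 20 groups.

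Library 14 of cKO;S/+ was set apart in 6 of these. It was low in Csf1 (145 CPM, nearest library 296 CPM, ratio 0.867), in Cxcl10 (2.37 and 29.7 CPM, 0.895) and in Gfap (175 and 420 CPM, 0.847). Its mean over disease-associated microglia genes was 5.429, with the nearest library at 6.655 (0.85). It was high in Nmnat2 (29.4 and 20.9 CPM, 0.931) and in the mean of heat shock chaperones (6.730 and 6.642, 0.889).

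Among ctrl-2 libraries, library 4 was high in Lyz2 (30.8 and 20 CPM, 0.884), and library 5 was high in C3ar1 (39.3 and 23.2 CPM, 0.923) and in the mean of inflammatory cytokines and their receptors (4.437 and 4.040, 0.836). Among cKO;S/S libraries, library 18 was high in Gfap (245 and 141 CPM, 0.835) and in Ptprz1 (2246 and 1768 CPM, 0.873) and low in Lyz2 (18.1 and 20.7 CPM, 0.842). Library 16 was low in Abcg1 (48.3 and 63.5 CPM, 0.875), and library 15 was low in the mean of fatty acid oxidation genes (5.580 and 5.749, 0.885).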

How the results depend on the processing

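Counts below are in the order higher and lower in cKO;S/+ (827 and 148 with all 12 libraries), higher and lower in cKO;S/S than in ctrl-2 (0 and 0), higher and lower than each other genotype (0 and 0), and higher and lower genes near the ctrl-2 level in cKO;S/S (8 and 2). No paired analysis was run, because the sample information used here pairs no libraries. The library numbers do not tell which mice were littermates. With each library left out in turn the main counts ran from 0 to 1525 and from 0 to 1120, those of cKO;S/S against ctrl-2 from 0 to 1 and from 0 to 4, those apart from each genotype from 0 to 611 and from 0 to 247, and those near ctrl-2 from 0 to 125 and from 0 to 69. Both main counts were 0 without library 8 and without library 10, the lower count was also 0 without library 9, and both were highest without library 14. The likelihood ratio test gave 1133 and 377, 33 and 15, 128 and 10, and 11 and 2, and DESeq2 gave 1185 and 497, 31 and 27, 158 and 16, and 14 and 1. DESeq2 thus put 70.5% of its calls on the higher side, against 84.8% with all libraries in the quasi-likelihood test. Limma-voom left 2 higher genes near ctrl-2, RLE scaling and a mean CPM of at least 1 each left 1 lower gene, and a minimum log2 difference of 0.5 left 61 lower calls. Upper quartile scaling gave 752 and 222, with 3 lower genes near ctrl-2. Pooling ctrl-2 and cKO;S/S into 1 group gave 682 and 130, and gives no difference between those groups.

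Among the 6 libraries that express Xist the counts were 1013 and 808, 0 and 0, 114 and 60, and 7 and 13. With Xist as a covariate they were 0 and 1, with 0 and 0 in the next pairs and 0 and 1 near ctrl-2. The covariates for microglia and for oligodendrocyte markers each gave 0 throughout. With library 14 left out and the microglia covariate they were 1 and 0, 0 and 0, 1 and 0, and 1 and 0. With library 14 left out and Xist as a covariate, chosen after seeing the data, they were 824 and 266, 0 and 0, 109 and 2, and 108 and 36. The cause was not tested for any of these.

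Sign changes were sought among the called named genes and among list medians larger than their spread between libraries of a genotype. Among these, signs changed only under 3 covariate settings. With the microglia covariate the median log2 difference was −0.021 for interferon-stimulated genes, −0.022 for general and −0.038 for homeostatic microglia markers and −0.011 for NRF2 genes, and the difference was −0.007 for Ftl1, −0.024 for Acox3, −0.031 for Csf1r, −0.030 for Ctss and −0.003 for Cst3. With the oligodendrocyte covariate the median of mature oligodendrocyte markers was 0.031. The microglia covariate is the mean level of the general microglia markers, and the oligodendrocyte covariate that of the mature oligodendrocyte markers. The adjusted median of each of these lists was therefore set near 0 in advance, and its sign carries no information. Csf1r, Ctss and Lcp1 are members of the general microglia list. With library 14 left out and the microglia covariate the medians were −0.114 for general and −0.210 for homeostatic microglia markers and 0.016 for synaptogenic factors, and the differences were −0.021 for Itgb2, −0.018 for Lcp1, −0.113 for Olfml3, −0.108 for Fcrls, −0.200 for Gpr34, −0.560 for Gdf15, −0.095 for Ftl1, −0.050 for Tgfb1, −0.043 for Sparc, −0.243 for Cebpb, −0.345 for Csf1r and −0.061 for Ctss. Of 128 named genes, of which 113 were called, 113 lost the call without library 8 or without library 10 and 100 without library 9, whereas none lost it without library 14.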
